A study of Mus musculus with 6 samples.

Results

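EGR1 and 9 other immediate early genes were followed across 6 A375 tumours by their human Ensembl identifiers. The list holds EGR1, FOS, FOSB, JUN, JUNB, ATF3, DUSP1, IER2, ZFP36 and KLF4. EGR1 was selected on its measured FPKM values, which were lower in all 3 ZLD1039 tumours, so its difference between the groups is a description and carries no test. The other 9 were taken as genes of the same class, with earlier results of these data known. Rows were found for 8 of the 10 genes, among 15234 loci in all. JUN and JUNB matched no row of the lists used here and are not analysed.

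Immediate early genes are switched on within minutes of a stimulus, without the need for new protein, and are shut off again soon after. Growth factor signalling through RAF, MEK and ERK phosphorylates factors bound with SRF at their promoters, and stress kinases feed into many of the same genes. A375 is an established human melanoma cell line with an activating BRAF mutation, so this pathway is driven from within the cells. Several products of these genes close the loop: DUSP1 dephosphorylates MAP kinases, and ZFP36 binds AU-rich messages and hastens their decay.

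The tumours were grown under the skin of BALB/c nude mice, which lack a thymus but keep other immune cells, from A375 cells labelled WT. Mice received ZLD1039, an inhibitor of the histone methyltransferase EZH2, by mouth at 100 mg/kg daily, or vehicle alone, and the labels give day 27 for all tumours. The labels put 5 mice in each group, and 3 tumours of each were sequenced. Whether each tumour came from its own mouse is not stated, so the p-values reflect only how far these tumours differed, which may be partly technical. The positions and identifiers are human although the labels name the mouse, and host reads placed on human genes cannot be told apart from reads of the graft. In such bulk tissue, fewer cells of a type and less RNA per cell cannot be told apart either. The labelled cell type was not checked against marker genes, because no source used here pairs the human identifiers with names.

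Each tumour's data list transcript events, such as start sites, end sites, included exons and retained introns, each with an abundance in FPKM (fragments per kilobase of transcript, scaled to the fragments of the library). The lists covered 12114 to 12758 loci per tumour, and the number of sequenced fragments is unknown. The level of a locus was the largest of its summed starts, its summed ends and its largest single event, which is a lower bound of its abundance. A locus missing from a list was given 0. ZLD1039 tumour 2 stood apart from the rest, at 51.9 on the first principal component, where the other 5 tumours lay between -13.3 and -4.02. Of 10834 loci tested, limma called 2 at a Benjamini-Hochberg adjusted p under 0.05, which is 0.0185%, and none of them was lower under ZLD1039.

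EGR1 (ENSG00000120738), a zinc finger transcription factor that binds GC-rich promoters, was the most abundant of the 8 genes in each vehicle tumour. Its locus lies on the plus strand of chromosome 5, from 137801179 to 137805004, with positions as the files give them. No build is named for human positions, and by chromosome names and lengths they look like GRCh37. One start event spans 137801179 to 137801757 and one end event 137802446 to 137805004, and both carried the same abundance in each tumour. EGR1 stood at 38.6, 54.2 and 51.1 FPKM in vehicle tumours 1, 2 and 3. In ZLD1039 tumours 1, 2 and 3 it stood at 23.6, 22.4 and 14.5 FPKM. The groups did not overlap, as the choice of the gene required: the lowest vehicle tumour was at 38.6 FPKM and the highest ZLD1039 tumour at 23.6 FPKM.

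The mean EGR1 level was 47.9 ± 8.26 FPKM in the vehicle group against 20.2 ± 4.96 FPKM in the treated group (SD, n = 3), a ratio of 0.420. On the scale of log2(FPKM + 1), used throughout for differences, the difference of ZLD1039 minus vehicle was -1.23 (standard error 0.23). Among the listed loci, EGR1 exceeded 91.6 to 94.2% in the vehicle tumours and 72.7 to 83.9% in the ZLD1039 tumours. Vehicle tumour 2 also listed a second locus with the same identifier on the minus strand (137803053 to 137803678), at 0.588 FPKM, which no other tumour listed. It was kept apart from the EGR1 level. Whether the counting used strand is not given in the sources used here.

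**Figure D1:**
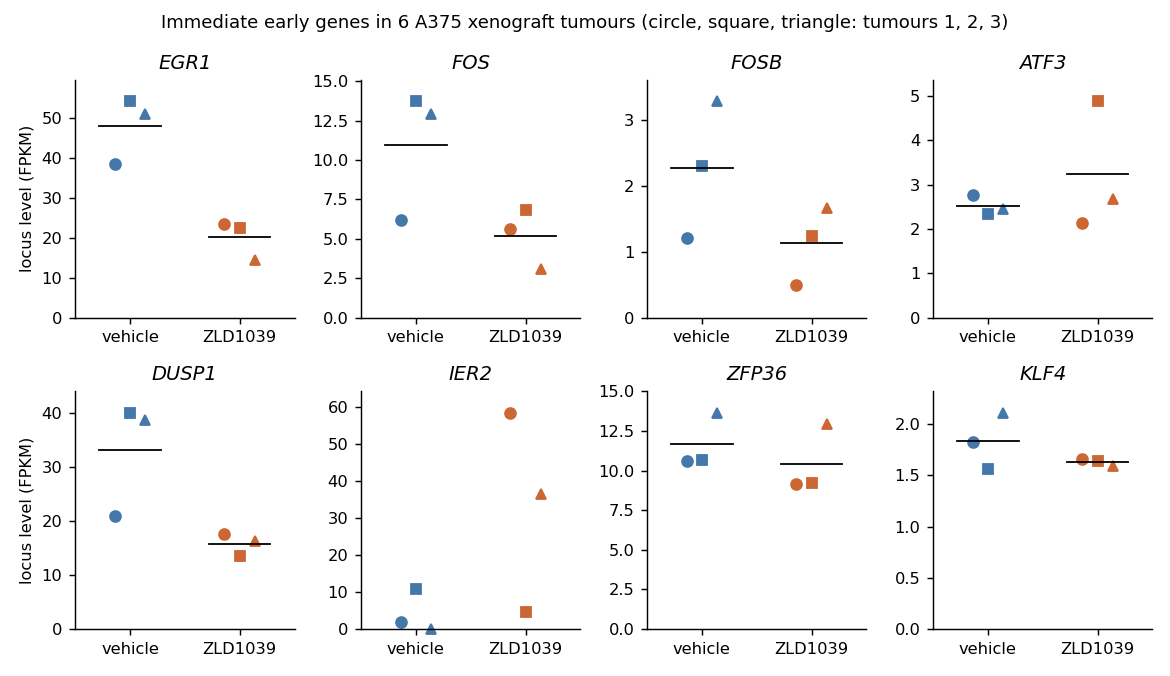
Locus level in FPKM (vertical axis, linear from 0) of the 8 genes with rows, for 3 vehicle tumours (blue) and 3 ZLD1039 tumours (orange). Circle, square and triangle are tumours 1, 2 and 3, and lines are group means, left out for IER2, which vehicle tumour 3 did not list. The groups are separate for EGR1 and DUSP1 and overlap for the other 6 genes.

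DUSP1 (ENSG00000120129), a nuclear phosphatase that switches off MAP kinases and is itself an immediate early gene, had the same order of groups as EGR1. Its locus lies on the minus strand of chromosome 5 (172194570 to 172198198). It measured 20.9, 40.1 and 38.7 FPKM under vehicle against 17.7, 13.5 and 16.3 FPKM under ZLD1039. All 3 ZLD1039 tumours lay below all 3 vehicle tumours, and vehicle tumour 1 was the closest to them.

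The mean DUSP1 level was 33.2 ± 10.7 FPKM in the vehicle group against 15.8 ± 2.15 FPKM in the treated group (SD, n = 3). The log2 difference was -0.98 (standard error 0.26, 95% interval from -1.59 to -0.37). It did not pass the threshold over all loci (limma, unadjusted p = 0.0063, Benjamini-Hochberg adjusted p = 0.88), and its unadjusted p ranked 53rd among the 10834 loci. Leaving out vehicle tumour 1 gave a log2 difference of -1.27 (limma, adjusted p = 0.43).

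The Fos proteins pair with Jun proteins to form AP-1, a leucine zipper dimer that activates growth and invasion genes. FOS (ENSG00000170345) lies on the plus strand of chromosome 14 (75745477 to 75747370). FOS stood at 6.22, 13.7 and 12.9 FPKM under vehicle, against 5.64, 6.80 and 3.10 FPKM under ZLD1039. Vehicle tumours 2 and 3 were high, and vehicle tumour 1 lay inside the range of the ZLD1039 tumours. Of the 9 pairs of a ZLD1039 and a vehicle tumour, 8 had the lower value under ZLD1039.

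The mean FOS level was 10.95 ± 4.12 FPKM in the vehicle group against 5.18 ± 1.89 FPKM in the treated group (SD, n = 3). The log2 difference of -0.93 (standard error 0.34) did not pass (limma, unadjusted p = 0.026, adjusted p = 0.88).

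FOSB (ENSG00000125740), on the plus strand of chromosome 19 (45971253 to 45978437), was among the least abundant of the genes. It measured 1.22, 2.31 and 3.29 FPKM under vehicle and 0.498, 1.25 and 1.67 FPKM under ZLD1039. The groups overlapped, and 7 of the 9 tumour pairs were lower under ZLD1039. Its log2 difference was -0.60 ± 0.34 (standard error; limma, adjusted p = 0.88). At such low levels this scale understates the difference: with a pseudocount of 0.1 in place of 1 it was -0.97, and without ZLD1039 tumour 1 it was -0.37.

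ATF3 (ENSG00000162772), a leucine zipper factor of the ATF family that is induced by many stresses, was highest in a single ZLD1039 tumour. Its locus lies on the plus strand of chromosome 1 (212738676 to 212792877). ATF3 measured 2.75, 2.33 and 2.44 FPKM in the vehicle tumours and 2.14, 4.88 and 2.68 FPKM in the ZLD1039 tumours. The value of ZLD1039 tumour 2, the tumour that stood apart over all loci, was the highest, and the other 5 lay between 2.14 and 2.75 FPKM. The log2 difference was 0.22 ± 0.27 (standard error; limma, adjusted p = 0.90), and without that tumour it turned to -0.046.

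IER2 (ENSG00000160888), a small nuclear protein induced with FOS and JUN, varied most. It lies on the plus strand of chromosome 19 (13261229 to 13265722). IER2 stood at 58.5, 4.64 and 36.6 FPKM in ZLD1039 tumours 1, 2 and 3. It stood at 1.84 and 10.8 FPKM in vehicle tumours 1 and 2, and vehicle tumour 3 did not list it. ZLD1039 tumours 1 and 3 were above every vehicle tumour, while ZLD1039 tumour 2 lay between the 2 vehicle tumours that listed the gene.

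An unlisted locus need not be silent, since 25 tested loci were absent from 1 or more lists although their median elsewhere was at least 10 FPKM. The log2 difference of IER2 was therefore 2.85 (standard error 1.06) when the missing value was set to 0, and did not pass (limma, unadjusted p = 0.028, adjusted p = 0.88). Without vehicle tumour 3 it was 2.01 (limma, adjusted p = 0.94). The abundance was also divided differently among the tumours. ZLD1039 tumours 1 and 3 listed both of the 2 end events, vehicle tumour 2 and ZLD1039 tumour 2 only the shorter (13263911 to 13265063), and vehicle tumour 1 only the longer (13263758 to 13265722).

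ZFP36 and KLF4 had the smallest log2 differences of the 8 genes. ZFP36 (ENSG00000128016), the decay factor also known as tristetraprolin, was represented by a single start event on the plus strand of chromosome 19 (39897453 to 39897568). It measured 10.6, 10.7 and 13.6 FPKM under vehicle and 9.15, 9.18 and 12.9 FPKM under ZLD1039. The groups overlapped, and tumour 3 was the highest of each. The log2 difference was -0.16 (standard error 0.19), with a 95% interval from -0.61 to 0.29 (limma, adjusted p = 0.91).

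KLF4 (ENSG00000136826), a zinc finger factor of epithelial differentiation and stem cell programmes, lies on the minus strand of chromosome 9 (110247133 to 110251718). It measured 1.82, 1.56 and 2.11 FPKM under vehicle and 1.66, 1.64 and 1.59 FPKM under ZLD1039. The groups overlapped, with a log2 difference of -0.10 (standard error 0.22) and a 95% interval from -0.61 to 0.40 (limma, adjusted p = 0.94). In ZLD1039 tumour 2 the 463 tested loci of chromosome 9 lay at a median log2 distance of -0.32 from the other 5 tumours' mean, while KLF4 itself lay at -0.06.

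None of the 7 genes beside EGR1 passed limma's threshold, where 0.0185% of all loci did. At an unadjusted p under 0.05 limma had 3 of the 7, DUSP1 and FOS on the lower and IER2 on the higher side, where 4.94% of all loci had one. Beside EGR1, chosen for that, the groups did not overlap for 1 of the 7, DUSP1, which was lower under ZLD1039. Over all loci, 10.9% did not overlap in either direction and 5.2% were lower under ZLD1039 without overlap. The median log2 difference of the 7 genes was -0.16 and 5 of them were negative, while over all loci the median was 0.02 and 47.2% were negative. All 8 genes had a mean of at least 1 FPKM in both groups, so none entered the test through 1 group alone.

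**Figure D2:**
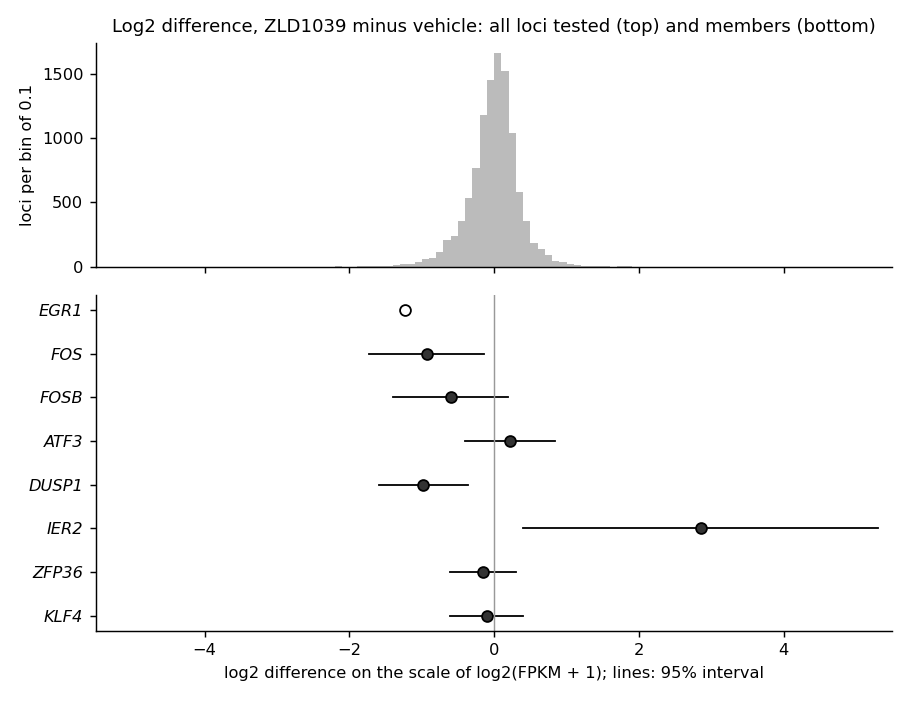
Log2 difference of ZLD1039 minus vehicle on the scale of log2(FPKM + 1) (horizontal axis), as a histogram of all 10834 loci tested (top, loci per bin of 0.1) and for the 8 genes (bottom). Points are limma estimates and lines 95% intervals. EGR1 is an open point with no interval because it was chosen for this difference. EGR1, DUSP1 and FOS lie on the lower side at -1.23, -0.98 and -0.93, and IER2 lies alone on the far higher side with the widest interval.

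By mean level under vehicle, the genes ran from EGR1 (47.9 FPKM) through DUSP1, ZFP36, FOS, ATF3 and FOSB to KLF4 (1.83 FPKM), leaving aside IER2 with its unlisted tumour. FPKM is a level per length, but each level is a lower bound from the events its locus has, and for ZFP36 that is 1 start event of 116 bases. The order and the ratios below hold for these lower bounds. The ratio of EGR1 to DUSP1 was 1.84, 1.35 and 1.32 under vehicle and 1.33, 1.67 and 0.885 under ZLD1039. The value below 1, in ZLD1039 tumour 3, depended on the event used. There the DUSP1 level was its end event at 16.3 FPKM, while its start event stood at 13.2 FPKM, below EGR1 at 14.5 FPKM. Neighbours in this order were not all apart. EGR1 (38.6 to 54.2 FPKM) and DUSP1 (20.9 to 40.1 FPKM) overlapped across the vehicle tumours, though EGR1 was the higher within each. ZFP36 (10.6 to 13.6 FPKM) and FOS (6.22 to 13.7 FPKM) overlapped across them too. So did ATF3 (2.33 to 2.75 FPKM) and FOSB (1.22 to 3.29 FPKM), and FOSB and KLF4 (1.56 to 2.11 FPKM).

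The proportions of the genes to one another varied less for EGR1 and FOS than for EGR1 and ZFP36. The ratio of EGR1 to FOS was 6.20, 3.95 and 3.95 under vehicle and 4.18, 3.30 and 4.67 under ZLD1039, a spread of 1.88-fold from lowest to highest. Over the same tumours EGR1 itself spread 3.75-fold, FOS 4.43-fold and ZFP36 1.49-fold. The group difference for which EGR1 was chosen enters these ratios. A ratio to a gene that is low in the same tumours spreads less than a ratio to a nearly flat gene, so the contrast is a description. The ratio of EGR1 to ZFP36 spread 4.54-fold, from 1.12 in ZLD1039 tumour 3 to 5.08 in vehicle tumour 2. A ratio within a tumour does not depend on how that tumour's library was scaled.

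Vehicle tumour 1 was the lowest vehicle tumour for EGR1, FOS, FOSB and DUSP1 alike. Relative to the mean of vehicle tumours 2 and 3 it stood at 0.733 for EGR1, 0.467 for FOS, 0.434 for FOSB and 0.531 for DUSP1. It was also the lowest for ZFP36, at 0.874. The same ratio was 0.992 for KLF4 and 1.15 for ATF3, and 0.342 for IER2, where vehicle tumour 3 did not list the gene and was set to 0. Among the ZLD1039 tumours no single one was lowest for all 4: tumour 3 was lowest for EGR1 and FOS, tumour 2 for DUSP1 and tumour 1 for FOSB. These 4 genes were set side by side after their values were seen.

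**Figure D3:**
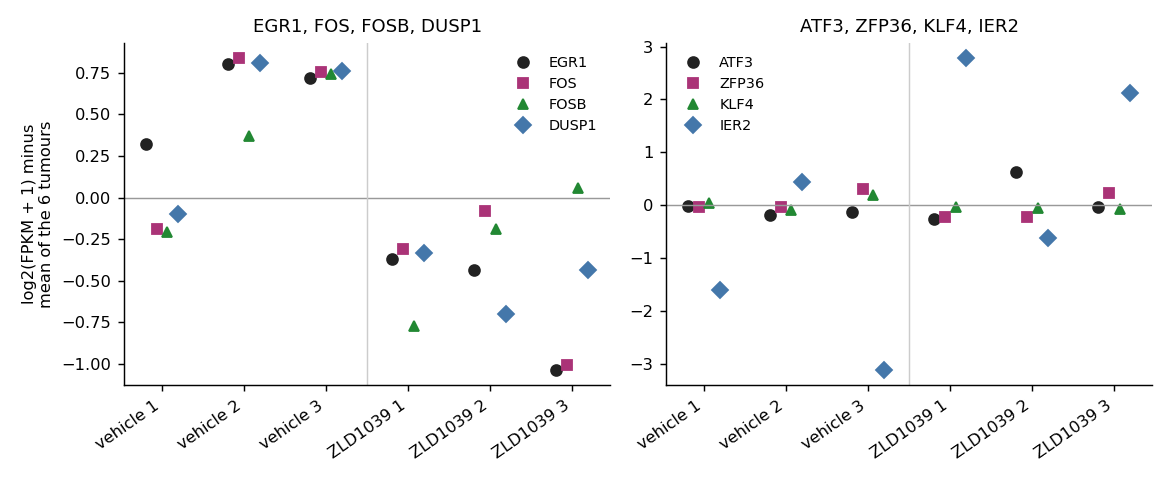
Deviation of log2(FPKM + 1) from the gene's mean over the 6 tumours (vertical axis, a different scale in each panel), by tumour, for EGR1, FOS, FOSB and DUSP1 (left) and ATF3, ZFP36, KLF4 and IER2 (right). Vehicle tumours 2 and 3 are high for all 4 genes on the left, between 0.37 and 0.84, and vehicle tumour 1 lies between -0.21 and 0.32. On the right IER2 spans -3.12 to 2.78 while ZFP36 and KLF4 stay within 0.30 of 0.

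Co-variation with EGR1 was measured on the log2 values over the 6 tumours, for 7 genes. The group difference for which EGR1 was chosen enters r and rho, and any gene that differs between the groups gains from it, so these are descriptions without a test. The tests were made on deviations from the group means, where that difference is gone, with the tumours permuted within their groups. FOS had Pearson's r = 0.92 and Spearman's rho = 0.83 with EGR1, and r = 0.77 without vehicle tumour 2 and ZLD1039 tumour 3, the 2 tumours farthest from the EGR1 median. On deviations from the group means r was 0.93 (exact two-sided permutation p = 0.083, adjusted p = 0.58 over the 7). The smallest p that the 36 orders allow is 0.028, so a single relation could not pass after adjustment. The vehicle tumours fell in the same order for both genes, and ZLD1039 tumour 3 was the lowest treated tumour for both.

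DUSP1, which lies on the same chromosome as EGR1, had r = 0.88 and rho = 0.94 with it, and r = 0.93 without the same 2 tumours. On deviations from the group means r was 0.49 (exact permutation p = 0.25, adjusted p = 0.71).

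FOSB had r = 0.56 and rho = 0.43 with EGR1, KLF4 r = 0.50 and rho = 0.14, and ZFP36 r = 0.16 and rho = 0.26. ATF3 had r = -0.32 and rho = -0.43, and IER2 r = -0.65 and rho = -0.43. Without vehicle tumour 2 and ZLD1039 tumour 3 the r values were 0.82 for FOSB, 0.97 for KLF4, 0.96 for ZFP36, -0.44 for ATF3 and -0.80 for IER2, so those of KLF4 and ZFP36 depended on which tumours were used. On deviations from the group means r was -0.07 for FOSB, 0.02 for KLF4, 0.04 for ATF3 and -0.04 for IER2, and for ZFP36 it was -0.54 (exact permutation p = 0.31, adjusted p = 0.71).

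Pairs without EGR1 were tested by permuting all 6 tumours, so a group difference shared by both genes enters r, rho and p. Among them, FOS and DUSP1 had r = 0.84 (exact permutation p = 0.064, adjusted p = 0.49 over 21 pairs) and rho = 0.66 (exact permutation p = 0.18, adjusted p = 0.75). Without vehicle tumours 2 and 3, the farthest from the FOS median, r was -0.01. That leaves only vehicle tumour 1 in its group and takes out much of the group difference. On deviations from the group means r was 0.61 for FOS with DUSP1, which was not tested. FOSB was closest to ZFP36, which lies on the same chromosome, with r = 0.78 (exact permutation p = 0.072, adjusted p = 0.49) and rho = 0.89 (exact permutation p = 0.033, adjusted p = 0.70), and r = 0.35 without vehicle tumour 3 and ZLD1039 tumour 1. IER2 and KLF4 had r = -0.79 (exact permutation p = 0.058, adjusted p = 0.49) and rho = -0.60. On deviations from the group means r was 0.75 for FOSB with ZFP36 and -0.69 for IER2 with KLF4, which was not tested. None of the 21 passed after adjustment. The orders of 6 tumours are too few for a single pair to pass over 21 pairs at any r, so this decides nothing about a single pair. Over all 28 pairs the median r was 0.12 and 15 were above 0, and 42.2% of the pairs among all loci tested were at or above that median.

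Against all other loci, FOS and DUSP1 were near the top in likeness to EGR1, a measure into which the group difference enters. Of 10833 loci, 45 had a higher r with EGR1 than FOS (0.415%) and 130 a higher r than DUSP1 (1.2%), as against 12.8% for FOSB and 16.3% for KLF4. On deviations from the group means the shares were 0.988% for FOS and 20.8% for DUSP1. With 6 tumours and so many loci a high r is not singular: 80 loci beyond the list (0.739%) had r of at least 0.9.

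By rule, the 2 loci with the highest r and the 2 with the lowest are named here by identifier, since the files pair no names with them. ENSG00000107874 (chromosome 10, 104183002 to 104192418, minus strand) had r = 0.99, with 31.5, 40.6 and 40.5 FPKM under vehicle and 18.4, 17.5 and 13.4 FPKM under ZLD1039. ENSG00000251141 (chromosome 5, 44745002 to 44808838, minus strand) had r = 0.98, with 3.15, 5.56 and 3.54 FPKM under vehicle and 0.539, 0.984 and 0.085 FPKM under ZLD1039. ENSG00000113569 (chromosome 5, 37301116 to 37371283, minus strand) and ENSG00000136940 (chromosome 9, 125580623 to 125590910, minus strand) both had r = -0.98. The first of these ranged from 7.79 to 8.20 FPKM under vehicle and 9.15 to 10.5 FPKM under ZLD1039, and the second from 4.12 to 4.32 and from 5.65 to 6.48 FPKM. Being picked for likeness to EGR1, all 4 also have groups that do not overlap.

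**Figure D4:**
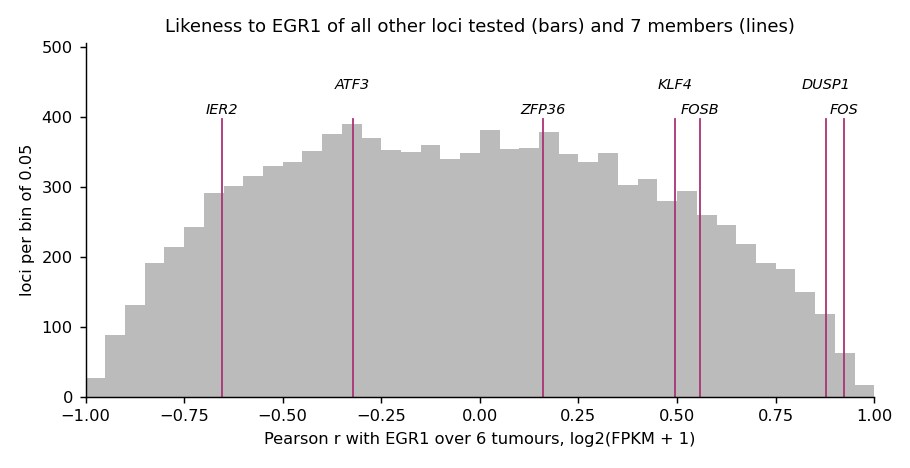
Number of loci (vertical axis, per bin of 0.05) by Pearson r with EGR1 over the 6 tumours (horizontal axis), for the loci tested outside the list, with vertical lines at the r of 7 listed genes. FOS at 0.92 and DUSP1 at 0.88 lie in the upper tail, FOSB at 0.56 and KLF4 at 0.50 lower, and IER2 at -0.65 and ATF3 at -0.32 on the negative side.

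Within the loci, FOS kept 1 leading start in all tumours and FOSB did not. The most upstream FOS start (75745477 to 75745826) carried 84.6, 95.6 and 88.2% of the start abundance in the vehicle tumours and 94.3, 95.9 and 95.3% in the ZLD1039 tumours. The most upstream FOSB start (45971253 to 45971970) carried 60.2, 99.3 and 99.4% under vehicle and 32.7, 17.6 and 79.3% under ZLD1039, and the next start (45973134 to 45974207) took nearly all the rest. The shares overlapped between the groups, since ZLD1039 tumour 3 lay above vehicle tumour 1. In abundance the upstream FOSB start stood at 0.732, 2.29 and 3.27 FPKM under vehicle and 0.163, 0.219 and 1.32 FPKM under ZLD1039. The next start stood at 0.483, 0.009 and 0.015 FPKM under vehicle and 0.335, 1.03 and 0.345 FPKM under ZLD1039. These values are low, and no test was made of them.

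The start of ATF3 was the same (212782012 to 212782272) in each vehicle tumour and in ZLD1039 tumour 2, with 100% of the start abundance. It carried 80.4% in ZLD1039 tumour 3 and was not listed in ZLD1039 tumour 1, which listed a start further downstream (212788364 to 212788603) in its place. For KLF4 the more upstream of 2 starts (110251449 to 110251718) carried 64.2, 64.4 and 59.3% under vehicle and 52.4 and 59.5% in ZLD1039 tumours 1 and 3, and ZLD1039 tumour 2 did not list it.

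**Figure D5:**
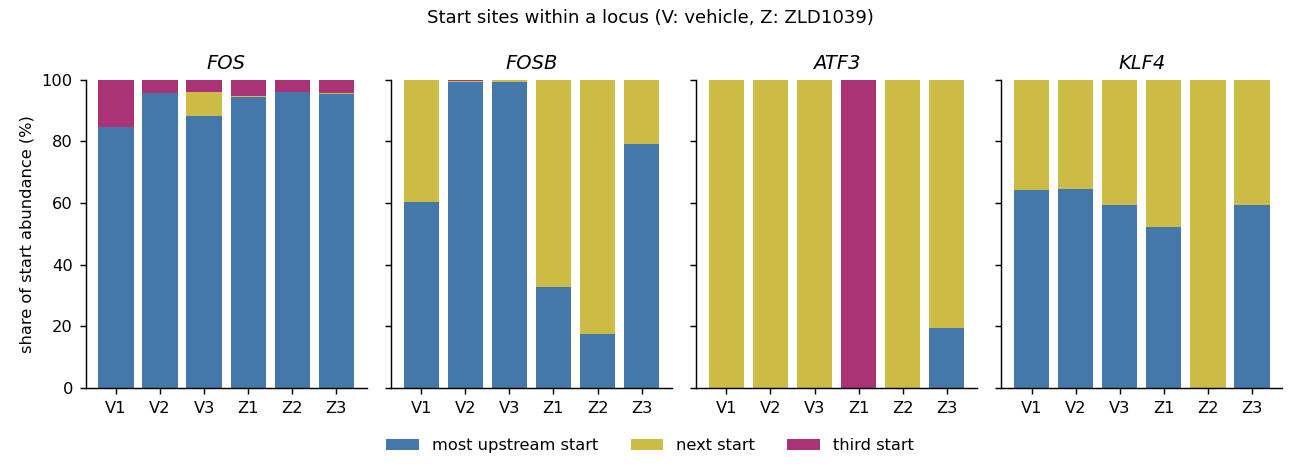
Share of the summed start abundance (vertical axis, %) taken by each start site of FOS, FOSB, ATF3 and KLF4 in vehicle tumours 1 to 3 (V1 to V3) and ZLD1039 tumours 1 to 3 (Z1 to Z3), with colours by order along the strand. FOS is led by its most upstream start in all 6 tumours, while the leading FOSB start is the next one in Z1 and Z2, at 67.3 and 82.4%.

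Introns were listed for 3 of the genes. The FOS intron from 75746831 to 75747263 was listed as spliced in all 6 tumours, at 2.14 to 9.69 FPKM, and as retained in none. Forms spliced from exons with other outer ends stood at up to 1.72 FPKM. In all 6 tumours 2 other events ran into this stretch. They were an end (75746580 to 75747077) at 0.633 to 1.72 FPKM and a start (75746896 to 75747370) at 0.133 to 0.946 FPKM. A KLF4 intron (110249473 to 110249576) was listed as retained at 0.447, 0.707 and 0.725 FPKM in the vehicle tumours, which was 38.2, 70.2 and 57.9% of the retained and spliced forms together. It was retained at 0.193 FPKM (22.2%) in ZLD1039 tumour 1 and not listed as retained in ZLD1039 tumours 2 and 3. The lists also hold the same intron spliced from an exon with another outer end, at 0.652, 0.556 and 0.860 FPKM under vehicle and 0.792, 1.64 and 0.645 FPKM under ZLD1039. With this form in the total, the retained share was 24.5, 45.2 and 34.3% under vehicle and 11.6% in ZLD1039 tumour 1. It was set to 0 in ZLD1039 tumours 2 and 3, where no retained form was listed. The retained form and the first spliced form together matched the more upstream start (110251449 to 110251718) in abundance. ZLD1039 tumour 2 did not list that start, so its 0 is not an observation separate from the missing start. The retained values lie below 1 FPKM, the depth behind them is unknown, and the intron was singled out after its values were seen, so no test was made. For ATF3 an intron (212788387 to 212788494) was listed as retained in all tumours but ZLD1039 tumour 1, and as spliced in none. The start listed in ZLD1039 tumour 1 (212788364 to 212788603, 2.14 FPKM) spans this whole stretch. The sequence was thus present in that tumour too, as part of a start event.

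FOS, FOSB and ATF3, the 3 leucine zipper genes with rows, each had an internal exon of 108 bases in the lists. These are 75747263 to 75747370 in FOS, 45974452 to 45974559 in FOSB and 212791469 to 212791576 in ATF3. Exons of that length made up 0.738% of 33593 distinct exons listed as included or with alternative ends. Transcripts with the exon stood at 4.34, 9.70 and 10.7 FPKM for FOS under vehicle and at 4.44, 5.82 and 2.16 FPKM under ZLD1039. For FOSB they stood at 1.13, 2.28 and 3.26 FPKM and at 0.461, 1.17 and 1.64 FPKM, and for ATF3 at 2.51, 2.32 and 2.31 FPKM and at 2.14, 4.76 and 2.35 FPKM. As for the locus levels, vehicle tumours 2 and 3 were highest for FOS and FOSB, and ZLD1039 tumour 2 for ATF3.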

How the data were processed

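RNA of 6 tumours was measured, 3 per group, with groups and replicate numbers from the sample titles. The authors deposited 1 list of transcript events per tumour with an FPKM value each, per the file headers. Per the submitters' processing notes, HTSeq 0.6.1 and bcl2fastq 2.17.1.14 were used and the build was mm10 (mouse), but chromosome 1 reaches position 249214145 in the files and the identifiers are human. The aligner and event caller are unknown (not given in the sources used here). Repeated rows of an event were used once. FPKM values are not counts and depth is unknown, so no count model was used. Loci whose mean reached 1 FPKM in either group entered limma 3.58.1 (R 4.3.3), fitted to log2(FPKM + 1) without a block, with a trend of variance on mean and Benjamini-Hochberg adjustment at 0.05. The fit was tested on simulated data. Correlations used scipy 1.17.1. Those with EGR1 were tested on deviations from the group means, and the other pairs on the log2 values over all 6 tumours. The genes, lists and form of the locus level were chosen with earlier results of these data known. Genes named were the 10 of the list and the 2 loci with the highest and the 2 with the lowest r with EGR1. A wider list of pathway genes and marker genes could not be matched, since the names and sequences at hand were mouse, so no human sequence is printed. Deviations of same-numbered tumours correlated between -0.061 and 0.020, and those of differently numbered tumours between -0.063 and 0.105. Replicate numbers thus showed no pairing of the tumours, which does not exclude one. Alternatives covered the pseudocount, filter, locus form, scaling, each tumour left out and a replicate block.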

Additional observations from a re-analysis of the deposited data

How the results depend on the processing

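The number of limma calls over all loci, 2, became 1 with a pseudocount of 0.1, with the largest single event as the level, with median-of-ratios scaling and with quantile normalization. It became 0 without a filter, with summed start events and with a replicate block, and was 0 to 2 when single tumours were dropped. In each of these the cause was not tested. The number of the 7 genes called stayed at 0 in all 13 alternatives. Their adjusted p (limma) was at least 0.43, and the replicate block, whose numbers showed no pairing of the tumours, changed no call of these genes. The log2 difference of EGR1 stayed between -1.37 and -1.01. That of DUSP1 ranged from -1.27 to -0.82, of FOS from -1.26 to -0.66, of FOSB from -0.97 to -0.37 and of IER2 from 2.01 to 4.08, the last with a pseudocount of 0.1. ATF3 turned from 0.22 to -0.046 without ZLD1039 tumour 2 and was up to 0.41 when another tumour was dropped.

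The r values of EGR1 hold the group difference it was chosen for. With summed start events r was 0.94 for DUSP1, and 0.70 on deviations from the group means (exact permutation p = 0.028, the smallest it can give, adjusted p = 0.19 over the 7). The test on deviations was chosen after seeing the data. With ZFP36 r turned to -0.24 without vehicle tumour 3. With 1 tumour left out r was 0.85 to 0.98 for FOS, 0.82 to 0.95 for DUSP1, 0.36 to 0.83 for FOSB, 0.17 to 0.93 for KLF4, -0.24 to 0.81 for ZFP36, -0.51 to -0.15 for ATF3 and -0.84 to -0.51 for IER2. Depth is unknown, so counting error cannot be given, and low values such as those of FOSB, KLF4 and ATF3 carry an error that only the spread of 3 tumours shows.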
